A study of Mus musculus with 6 samples.

Results

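Complement gene expression was examined in the tibialis anterior (TA) muscle of Bmal1 knockout mice that had received an adeno-associated virus (AAV) carrying RBM20 or GFP. The genes were 9 named complement components, receptors and regulators other than C1q, taken by symbol from the 55401 gene identifiers of the count table: C1s1, C2, C4b, C3, Cfb, C3ar1, Serping1, Cd55 and Cd59a. All 9 were found. The study made these libraries to examine titin splicing after RBM20, a regulator of that splicing, was supplied to muscle lacking the clock factor BMAL1. All 6 samples came from C57BL/6 mice with the HSA-MCM-Bmal1-/- genotype, in which a tamoxifen-inducible Cre driven by the human skeletal actin promoter removes Bmal1 in muscle fibres, so the AAV-GFP group carries the knockout too. Tamoxifen was given at 2 mg per day for 5 days to mice that were 12 to 16 weeks old at the start. The TA was injected with AAV 4 weeks after tamoxifen and collected 4 weeks after the injection, 8 weeks after tamoxifen. The groups were AAV-GFP (n = 3) and AAV-RBM20 (n = 3). The RBM20 vector held HA-tagged Rbm20 cDNA behind a CMV promoter. More of it was injected than of the GFP vector, so dose and transgene cannot be told apart.

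Complement is a cascade of plasma and tissue proteins that marks cells and debris for removal. In the classical pathway C1q activates the proteases C1r and C1s, which cut C4 and C2 into a C3 convertase. In the alternative pathway factor B, the product of Cfb, pairs with deposited C3b to make more convertase. The cleavage fragment C3a acts on myeloid cells through the receptor C3AR1. Serping1 encodes the C1 inhibitor, which blocks C1r and C1s, CD55 speeds the decay of the convertases on host cells, and CD59 blocks the membrane attack complex. The liver makes most plasma complement, while fibroblasts and macrophages of a tissue can make many components locally.

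Promoter sequences of 5 of the 9 genes (C1s1, C3, C3ar1, Cd55 and Cd59a) were in the RefSeq table for GRCm38.p6, each running from 250 bases before to 50 bases after a transcription start. Those of C1s1, C3 and C3ar1 are shown 5′ to 3′, because C1s1 and C3ar1 passed the test in the libraries numbered 1 and 2 and because C3 varied most between libraries. All 3 lie on the minus strand. Capitals mark every match to the motifs searched. The windows are chr6:124542310-124542609 for C1s1, chr17:57228087-57228386 for C3 and chr6:122856108-122856407 for C3ar1.
C1s1: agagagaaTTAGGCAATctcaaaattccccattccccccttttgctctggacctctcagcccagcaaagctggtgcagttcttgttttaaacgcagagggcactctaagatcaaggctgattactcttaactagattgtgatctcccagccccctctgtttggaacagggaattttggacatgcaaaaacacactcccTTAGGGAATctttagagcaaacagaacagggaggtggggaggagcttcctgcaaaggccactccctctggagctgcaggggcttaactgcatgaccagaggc
C3: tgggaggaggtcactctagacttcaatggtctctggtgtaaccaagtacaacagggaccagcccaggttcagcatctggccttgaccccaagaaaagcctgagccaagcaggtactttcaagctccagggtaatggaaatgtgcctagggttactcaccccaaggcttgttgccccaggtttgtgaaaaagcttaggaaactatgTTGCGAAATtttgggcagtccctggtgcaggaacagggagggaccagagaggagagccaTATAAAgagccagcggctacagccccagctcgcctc
C3ar1: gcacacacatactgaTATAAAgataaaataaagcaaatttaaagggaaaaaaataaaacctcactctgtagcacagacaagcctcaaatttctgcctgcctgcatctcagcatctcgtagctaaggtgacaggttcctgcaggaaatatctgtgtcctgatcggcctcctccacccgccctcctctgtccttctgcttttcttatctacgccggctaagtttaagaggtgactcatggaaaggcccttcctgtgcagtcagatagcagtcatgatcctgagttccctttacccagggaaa

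The motifs were searched on both strands of these windows, and a match is a description of the letters and not of a bound site. The C/EBP motif TTNNGNAAT matched the C1s1 window 242 and 52 bases before the start and the C3 window 45 bases before it. Of 32851 promoters of the same length, 11.5% held that motif. TATAAA matched the C3 window at 15 bases past the start and the C3ar1 window 235 bases before it, and 13.6% of promoters held it. The core of the interferon-stimulated response element matched only Cd59a among the 5 genes, 187 bases before the start, and 3.44% of promoters held it. The interferon-gamma activated site TTCNNNGAA, the NF-kB site and the E-box CACGTG matched none of the 5 windows and were held by 8.3%, 4.51% and 7.15% of all promoters. None of the motifs searched overlapped another in the windows shown.

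The 6 libraries held 41400132 to 54226618 counts over genes, and 17222 genes with enough counts were tested. Rbm20 measured 170, 165 and 164 CPM (counts scaled to a library's TMM-adjusted total) in AAV-GFP and 499, 545 and 406 CPM in AAV-RBM20, with no overlap between groups. The log2 fold change of Rbm20 was 1.54 (edgeR quasi-likelihood test, adjusted p = 0.121, or 0.0107 with the replicate block). With DESeq2 the adjusted p of Rbm20 was 1.4e-17, and 1.3e-31 with DESeq2 and the block. The main edgeR fit thus did not call the supplied gene itself, which limits what an absence of calls in that fit can mean. The markers of muscle fibres summed to 65243 CPM or more in every library. Library 3 of each group stood apart from libraries 1 and 2 of its own group. Titin took 4.48% and 9.05% of the counts of libraries 3 against 16.9% to 17.8% in the other 4, and mitochondrial genes took 12.5% and 11.4% against 6.41% to 7.66%. The fits of the complement genes are therefore given with and without libraries 3.

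Among the 9 genes, the inhibitors Serping1 and Cd55 had the highest levels per length of merged exons. Serping1 averaged 16.1 CPM per kilobase (range 9.83 to 23.7 over 6 libraries) and Cd55 averaged 12.0 (8.35 to 14.8). C3 followed at 8.73 CPM per kilobase (3.12 to 21.8), then C1s1 at 8.05 (5.44 to 10.7) and Cd59a at 5.68 (4.58 to 7.17). The ranges of neighbouring genes overlapped throughout these 5. The place of C3 rests on libraries 3: in the other 4 libraries C3 lay below C1s1 each time, and below Cd59a in 3 of the 4. C4b stood below all 5 at 1.18 CPM per kilobase (0.475 to 2.48), and its range overlapped that of C3ar1, which averaged 0.446 (0.137 to 0.823). C2 averaged 0.134 CPM per kilobase (0.0785 to 0.207), overlapping C3ar1, and Cfb came last at 0.0196 (0 to 0.0538).

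**Figure D1:**
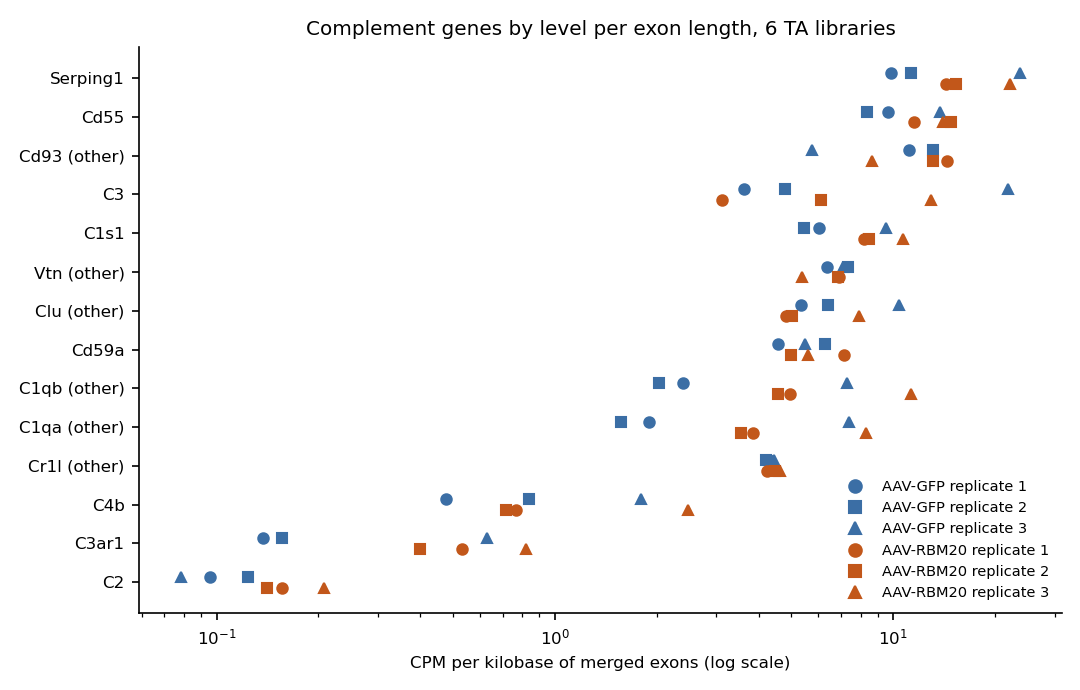
Level of 8 complement genes, and of 6 other complement genes named for their high level, in CPM per kilobase of merged exons on a log axis. Each point is 1 library, coloured by group and shaped by replicate number. Cfb is left out because it had no count in 1 library. Serping1 and Cd55 lie between 8.35 and 23.7, while C4b, C3ar1 and C2 lie at 2.48 or below.

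The genes differed in how widely they varied. C3 had a 7.01-fold range between its lowest and highest library, C3ar1 a 6.00-fold range and C4b a 5.22-fold range. The range was 2.64-fold for C2, 2.41-fold for Serping1, 1.97-fold for C1s1, 1.77-fold for Cd55 and 1.57-fold for Cd59a. Thus the 2 membrane inhibitors Cd55 and Cd59a were the steadiest of the 8 and the components C3 and C4b, with the C3a receptor, the least steady.

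With all 6 libraries, no complement gene passed the threshold between AAV-RBM20 and AAV-GFP. Of the 9 genes, 8 had enough counts to be tested, and 0 of 8 had an adjusted p under 0.05 (edgeR quasi-likelihood test, adjusted over all genes tested; smallest 0.641) or an unadjusted p under 0.05. Over all 17222 genes, 0% passed the adjusted threshold and 7.9% had an unadjusted p under 0.05. DESeq2 also placed 0 of the 8 past the threshold, beside 75 of all 17222 genes. The fitted value was above 0 for 7 of the 8 genes and below 0 for C3, beside 51.3% above 0 among all genes tested. The median log2 fold change was 0.35 for the 8 genes and 0.009 for all genes. In bulk muscle, more cells of a type and more RNA per cell cannot be told apart.

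C1s1 (ENSMUSG00000038521, GRCm38 chr6:124530345-124542359, minus strand, 12 merged exons) encodes the C1s protease. It measured 18.8, 17.0 and 29.7 CPM in AAV-GFP and 25.6, 26.4 and 33.5 CPM in AAV-RBM20. AAV-RBM20 was higher in each of the 3 same-numbered pairs, but library 3 of AAV-GFP lay above libraries 1 and 2 of AAV-RBM20, so the groups overlapped. The means were 21.8 ± 6.86 and 28.5 ± 4.32 CPM (SD, n = 3), and the log2 fold change was 0.38 ± 0.23 (SE; edgeR adjusted p = 0.658). On the opposite strand 576 of its exonic bases overlap Gm16567, and with the strand setting not given those reads are uncertain. An exact two-sided permutation test gave p = 0.3, where 0.1 is the smallest p that 3 against 3 allows.

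C2 (ENSMUSG00000024371, chr17:34862604-34898265, minus strand, 23 merged exons) encodes the protease that joins C4b in the classical convertase. C2 measured 0.369, 0.479 and 0.304 CPM in AAV-GFP and 0.605, 0.547 and 0.803 CPM in AAV-RBM20. Alone among the 8 genes, C2 had groups that did not overlap. Of all genes tested, 7.71% lay wholly higher in AAV-RBM20 and 9.04% wholly lower. The log2 fold change of C2 was 0.77 ± 0.36 (SE; edgeR adjusted p = 0.641), and the exact permutation p was 0.1. These values rest on 15, 20 and 16 counts against 33, 22 and 39 counts. C2 shares 1656 of its 3872 exonic bases with a readthrough gene on the same strand, Gm20547 (ENSMUSG00000092511), which is listed at 0 counts in all 6 libraries, so its level is uncertain.

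C4b (ENSMUSG00000073418, chr17:34728380-34743882, minus strand, 40 merged exons) encodes complement C4. Its level was 2.71, 4.77 and 10.2 CPM in AAV-GFP and 4.38, 4.08 and 14.1 CPM in AAV-RBM20. In both groups library 3 was the highest, and libraries 1 and 2 of the groups were interleaved. The log2 fold change was 0.35 ± 0.59 (SE; edgeR adjusted p = 0.873). The near copy C4a was counted 5, 3 and 3 times in AAV-GFP and 23, 4 and 10 times in AAV-RBM20, too few to be tested. Of the distinct 100-base stretches in C4b transcripts, 15.2% also occur in C4a, so reads from those stretches cannot be assigned to 1 of the pair.

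C3 (ENSMUSG00000024164, chr17:57203970-57228136, minus strand, 42 merged exons) encodes the component on which all the pathways converge. It measured 18.6, 24.6 and 112 CPM in AAV-GFP and 16.0, 31.3 and 66.4 CPM in AAV-RBM20. The 2 libraries numbered 3 lay above the other 4, and library 3 of AAV-GFP was the highest. Alone among the 8 genes, C3 had a negative fitted value, at a log2 fold change of -0.45 ± 0.73 (SE; edgeR adjusted p = 0.866). Without library 3 of AAV-GFP that value became 0.81, and without both libraries 3 it was 0.13. No direction can be given for C3.

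Cfb (ENSMUSG00000090231, chr17:34856374-34862518, minus strand, 17 merged exons), the factor B gene, lies next to C2. It had 0, 2 and 8 counts in AAV-GFP and 2, 3 and 1 counts in AAV-RBM20 and was too low to be tested. Gm20547 covers 2246 of the 2825 exonic bases of Cfb, so the level of Cfb is uncertain like that of C2. Taken per kilobase of bases not shared with Gm20547, Cfb averaged 0.0955 CPM and C2 averaged 0.234 CPM.

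C3ar1 (ENSMUSG00000040552, chr6:122847138-122856161, minus strand, 2 merged exons) encodes the receptor for C3a. It measured 0.590, 0.671 and 2.72 CPM in AAV-GFP and 2.29, 1.72 and 3.54 CPM in AAV-RBM20. All of the AAV-RBM20 libraries lay above libraries 1 and 2 of AAV-GFP, while library 3 of AAV-GFP lay within the AAV-RBM20 range. C3ar1 had the largest fitted value of the 8 genes, a log2 fold change of 0.91 ± 0.59 (SE; edgeR adjusted p = 0.676).

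Serping1 (ENSMUSG00000023224, chr2:84765387-84775444, minus strand, 8 merged exons) measured 22.9, 26.2 and 55.1 CPM in AAV-GFP and 33.2, 35.6 and 51.3 CPM in AAV-RBM20. Libraries 1 and 2 of AAV-RBM20 lay above libraries 1 and 2 of AAV-GFP, and the order was the other way in libraries 3. The log2 fold change was 0.20 ± 0.34 (SE; edgeR adjusted p = 0.869).

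Cd55 (ENSMUSG00000026399, chr1:130439027-130462744, minus strand, 10 merged exons) measured 47.0, 40.5 and 66.8 CPM in AAV-GFP and 56.0, 71.9 and 67.9 CPM in AAV-RBM20. It was higher in AAV-RBM20 in each of the 3 same-numbered pairs, and the groups overlapped through library 3 of AAV-GFP. The log2 fold change was 0.34 ± 0.20 (SE; edgeR adjusted p = 0.660). On the opposite strand 102 of its exonic bases overlap Gm16083. Its near copy Cd55b had 1 to 6 counts in each library, and 4.19% of the 100-base stretches of Cd55 occur in Cd55b.

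Cd59a (ENSMUSG00000032679, chr2:104095801-104115354, plus strand, 5 merged exons) measured 8.29, 11.4 and 9.94 CPM in AAV-GFP and 13.0, 9.06 and 10.2 CPM in AAV-RBM20. The groups were interleaved, and libraries 3 did not stand apart in either group. The log2 fold change was 0.12 ± 0.19 (SE; edgeR adjusted p = 0.857). Cd59b, the second mouse CD59 gene, was tested with a log2 fold change of 0.01 ± 0.28 (SE; edgeR adjusted p = 0.992).

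**Figure D2:**
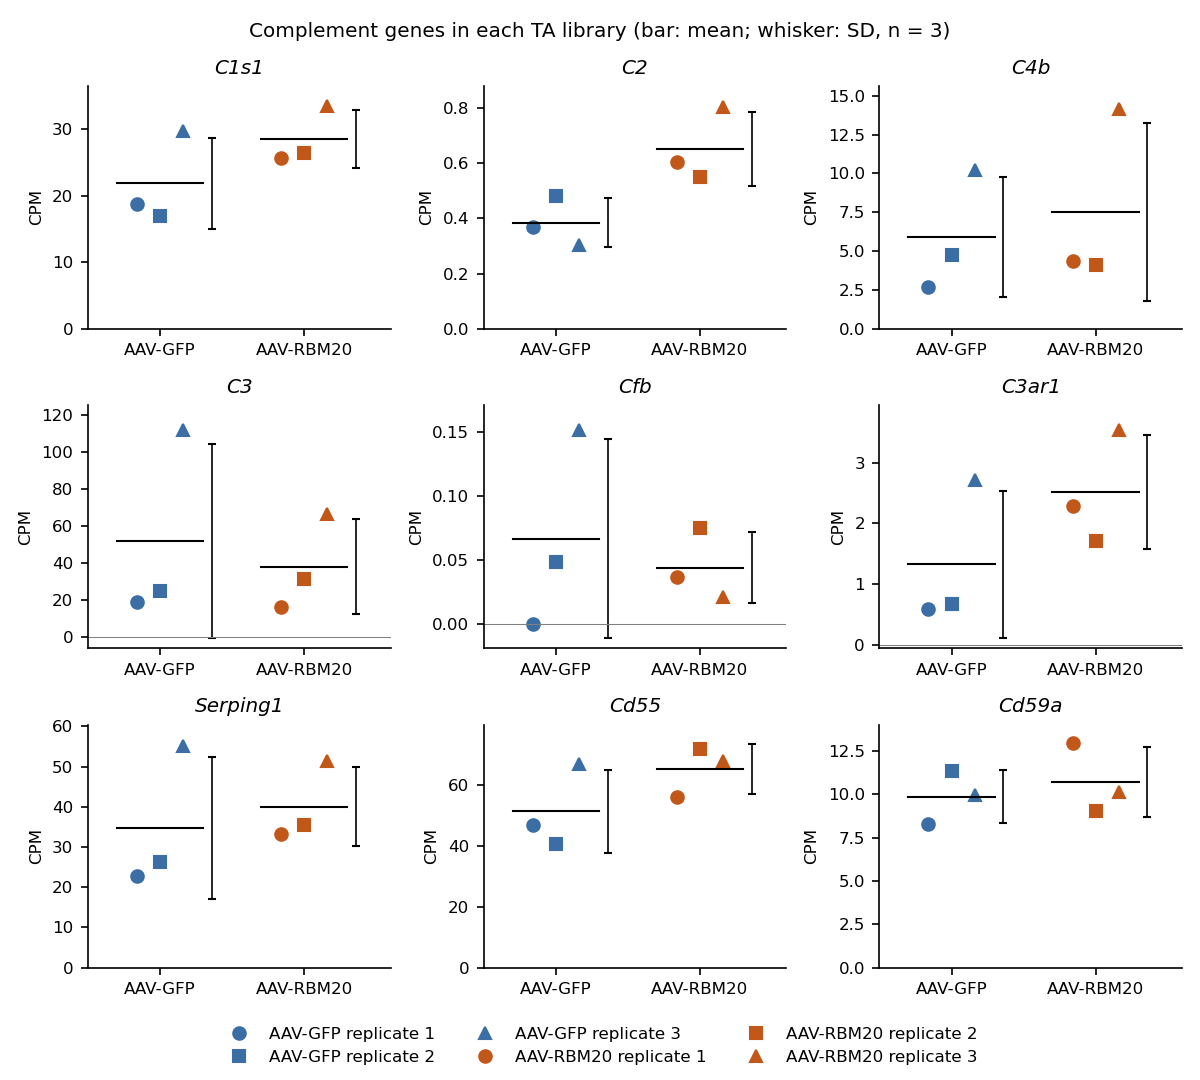
CPM of each complement gene in each library, with a bar for the group mean and a whisker for the SD (n = 3 per group). Each panel has its own linear axis, and the AAV-GFP whiskers of C3 and Cfb run below 0 because the SD exceeds the mean. The triangles, library 3 of each group, are the highest of their group in C1s1, C4b, C3, C3ar1 and Serping1.

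The libraries numbered 3 carried the largest spread. In 5 of the 8 tested genes (C1s1, C4b, C3, C3ar1 and Serping1), library 3 was above libraries 1 and 2 in both groups, which was so for 28.5% of all genes tested. Library 3 of AAV-GFP was 5.20-fold above the mean of its libraries 1 and 2 for C3, 4.31-fold for C3ar1, 2.73-fold for C4b and 2.25-fold for Serping1. Library 3 of AAV-RBM20 was 2.80-fold above that mean for C3, 1.77-fold for C3ar1, 3.34-fold for C4b and 1.49-fold for Serping1. Cd59a had ratios near 1 in both groups, at 1.01 and 0.921.

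Markers of other cell types also differed between libraries 3 and the rest, not all in the same direction. The 12 macrophage markers summed to 39.0, 38.6 and 112 CPM in AAV-GFP and to 84.5, 75.4 and 169 CPM in AAV-RBM20. The 12 markers of fibroblasts and fibro-adipogenic cells summed to 970, 870 and 1886 CPM in AAV-GFP and to 1550, 1442 and 1671 CPM in AAV-RBM20. Library 3 was thus 2.05-fold above the mean of libraries 1 and 2 in AAV-GFP but only 1.12-fold in AAV-RBM20. Adipoq, the defining adipocyte hormone, measured 0, 0.383 and 1.80 CPM in AAV-GFP and 0, 0.0498 and 0.597 CPM in AAV-RBM20, so it was highest in the same 2 libraries as C3. Plin1, Lep, Cidec, Retn and Fabp4 were also highest in library 3 of each group, at low counts except for Fabp4. The sum of the 7 adipocyte markers was lowest in libraries 3, at 278, 251 and 220 CPM in AAV-GFP and 293, 279 and 232 CPM in AAV-RBM20. Most of that sum was Pnpla2, which alone of the list was lowest there. Pnpla2 measured 216, 192 and 141 CPM in AAV-GFP and 235, 224 and 157 CPM in AAV-RBM20. The 8 endothelial markers were lowest in libraries 3 too and summed to 465, 540 and 225 CPM in AAV-GFP and 489, 470 and 350 CPM in AAV-RBM20. The part of these cell types in the complement values was not tested.

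**Figure D3:**
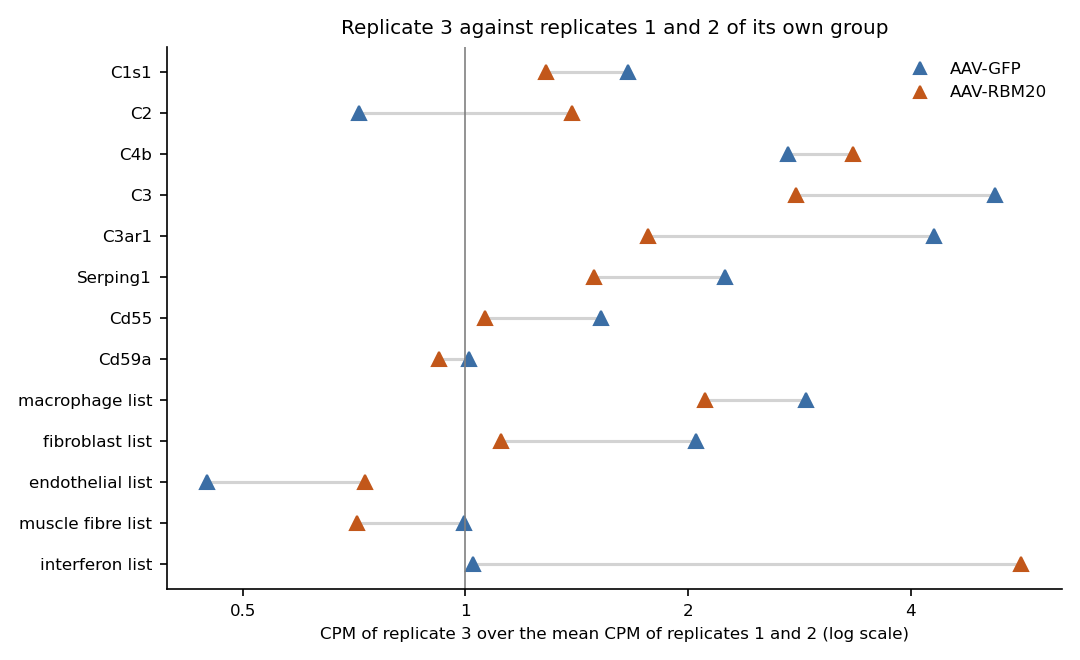
CPM of library 3 divided by the mean CPM of libraries 1 and 2 of the same group, on a log axis, for 8 complement genes and 5 gene lists (summed CPM). The grey line marks equality. C3, C4b and C3ar1 lie to its right in both groups together with the macrophage list, Cd59a lies on it, and the interferon list lies far to its right only in AAV-RBM20.

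Without libraries 3 of both groups, 3 of the 8 complement genes passed the threshold, all higher in AAV-RBM20, beside 4% of all genes tested and 1.95% passing as higher. C3ar1 had a log2 fold change of 1.68 ± 0.31 (SE; edgeR adjusted p = 0.0137), a 3.18-fold ratio of mean CPM. C1s1 had a log2 fold change of 0.55 ± 0.087 (SE; edgeR adjusted p = 0.00753), a ratio of 1.45. Serping1 had a log2 fold change of 0.49 ± 0.088 (SE; edgeR adjusted p = 0.0121), a ratio of 1.40. Cd55 had a similar ratio of 1.46 but did not pass (log2 fold change 0.55 ± 0.14, SE; edgeR adjusted p = 0.112). C2, C4b, C3 and Cd59a had ratios of 1.36, 1.13, 1.10 and 1.12, none past the threshold. The median log2 fold change was 0.47 for the 8 genes and 0.011 for all genes. This fit compares 2 libraries with 2, and leaving out libraries 1 or 2 of both groups instead left 0 of the 8 genes past the threshold. In those fits 0 of 17386 and 0 of 17728 genes tested passed, and Rbm20 passed in neither. The 0 of 8 there thus says nothing particular about the complement genes.

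In the same 4 libraries the macrophage list was 2.06-fold higher in AAV-RBM20 and the fibroblast list 1.63-fold higher, with 7 of 12 and 8 of 12 of their genes past the threshold as higher. As a share of the summed fibroblast markers, C1s1 measured 1.94%, 1.96% and 1.57% in AAV-GFP against 1.65%, 1.83% and 2.00% in AAV-RBM20, so the groups overlapped on that scale. Serping1 measured 2.35%, 3.01% and 2.92% against 2.14%, 2.47% and 3.07% of that list and overlapped too. As a share of the macrophage markers, C3ar1 measured 1.51%, 1.74% and 2.43% in AAV-GFP against 2.71%, 2.28% and 2.10% in AAV-RBM20, again with overlap. These ratios were chosen after the values had been seen. On other scales the groups did not overlap: as a share of the macrophage markers, Serping1 measured 49.2% to 67.9% in AAV-GFP and 30.4% to 47.2% in AAV-RBM20, and C3 measured 47.8% to 100.4% and 19.0% to 41.6%. In libraries 1 and 2 alone, C3ar1 took a larger share of the macrophage list in both AAV-RBM20 libraries than in either AAV-GFP library. C1s1 went the other way there, with 1.65% and 1.83% of the fibroblast list in AAV-RBM20 against 1.94% and 1.96% in AAV-GFP. That direction leans on the collagens, a large part of the list. In libraries 1 and 2, Col1a1 measured 167 and 159 CPM in AAV-GFP against 356 and 203 CPM in AAV-RBM20. Col3a1 measured 188 and 168 against 393 and 371 CPM. A share without the collagens was not taken, so no direction is given for C1s1 relative to fibroblasts. The shares of Serping1 in the fibroblast list still overlapped in those libraries. Whether the complement values follow the content of these cells was not tested.

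With same-numbered libraries as blocks, 0 of the 8 genes passed the threshold, beside 0.145% of all genes. C1s1, C3ar1 and Cd55 had an unadjusted p under 0.05, which 18.8% of all genes had in that fit and 8.92% had as higher. Their log2 fold changes with the block were 0.42 ± 0.11, 1.16 ± 0.33 and 0.37 ± 0.15 (SE), with edgeR adjusted p = 0.146, 0.154 and 0.247. C1s1, C2, C3ar1 and Cd55 were higher in AAV-RBM20 in all 3 same-numbered pairs, 4 of 8 genes, beside 22.2% of all genes tested.

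**Figure D4:**
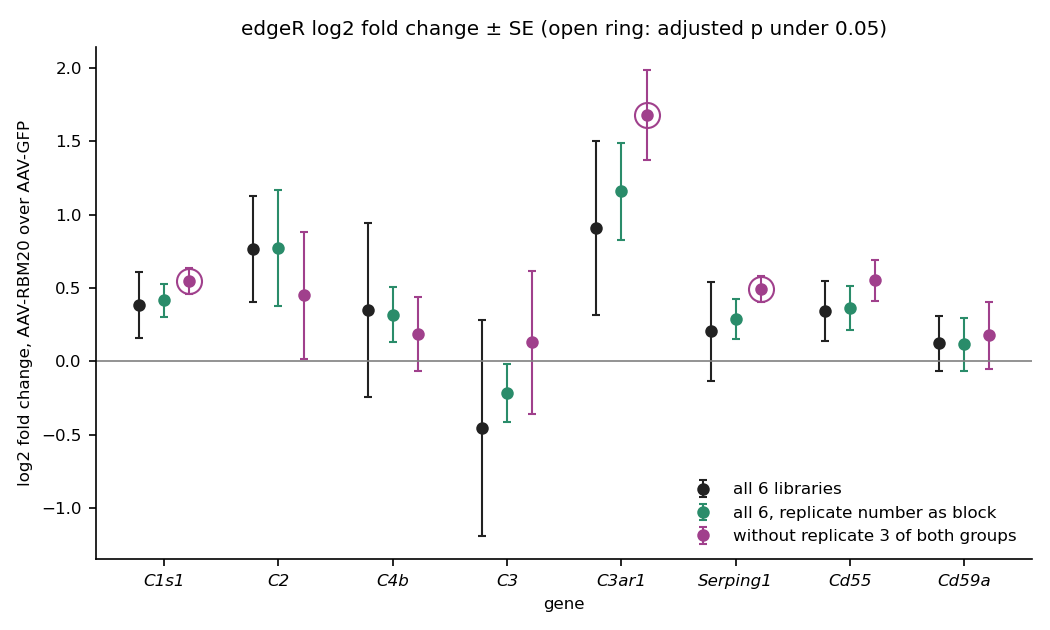
Log2 fold change of AAV-RBM20 over AAV-GFP for 8 complement genes in 3 edgeR fits, with whiskers for the SE. A ring marks an adjusted p under 0.05, which only C1s1, C3ar1 and Serping1 have, in the fit without libraries 3. C3 lies below 0 in both fits with all 6 libraries and at 0.13 without libraries 3.

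By role, the summed level of the 5 components (C1s1, C2, C4b, C3 and Cfb) was 10.2, 11.2 and 33.3 CPM per kilobase in AAV-GFP against 12.2, 15.4 and 26.3 in AAV-RBM20. The 3 inhibitors summed to 24.1, 25.9 and 42.9 CPM per kilobase in AAV-GFP against 33.0, 35.1 and 41.7 in AAV-RBM20. The inhibitors' summed level was above that of the components in every library, and the ratio of components to inhibitors was 0.424, 0.432 and 0.775 in AAV-GFP against 0.371, 0.440 and 0.631 in AAV-RBM20. The groups overlapped in that ratio, and libraries 3 had the highest ratio of each group. C3 took 10.5%, 12.8% and 28.4% of the summed level of the 9 genes in AAV-GFP against 6.81%, 12.0% and 18.8% in AAV-RBM20.

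The rest of the pathway is described from a list of 47 genes. Of these 47 further complement genes, 27 were tested, 22 had a fitted value above 0 and 5 below, and the median log2 fold change was 0.33. Among all genes tested, 51.3% had a value above 0. None passed the threshold with all 6 libraries (edgeR, 0 of 27; 3 with an unadjusted p under 0.05, and 0 with DESeq2), and none passed in edgeR with the replicate block. Over all genes tested, 7.9% had an unadjusted p under 0.05 in the edgeR fit without the block, and 75 genes passed in DESeq2 without it. In DESeq2 with that block 5 of the 27 passed as higher (C1qb, C1qc, Masp1, Itgax and Itgb2, adjusted p = 0.0035 to 0.0448). Over all 17222 genes, 520 passed in that fit, 185 of them as higher. The 3 with an unadjusted p under 0.05 in edgeR without the block were Masp1, a protease of the lectin pathway, and Itgam and Itgax, the alpha chains of the complement receptors of myeloid cells. Itgam had only 3 to 52 counts per library. It shares 3450 of its 5024 exonic bases with Gm49368 on the same strand, so its level is uncertain. All 6 tested receptor genes of the 7 listed had a value above 0 (median 1.00), as did all 6 tested proteases and lectins of the 13 listed (median 0.37). Of the 14 further regulators, 7 were tested and 5 had values above 0, with a median of 0.04. Of the 10 further components, 5 were tested, and Hc, Cfd and C7 had values below 0.

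The C1q genes, which encode the recognition subunit upstream of C1s, were highest in libraries 3 as well. C1qb measured 2.61, 2.20 and 7.94 CPM in AAV-GFP and 5.37, 4.98 and 12.2 CPM in AAV-RBM20, with a log2 fold change of 0.82 ± 0.54 (SE; edgeR adjusted p = 0.681). Without libraries 3, C1qa, C1qb and C1qc were the 3 genes of the 27 that passed, at log2 fold changes of 1.10, 1.11 and 1.27 (edgeR adjusted p = 0.0159, 0.00769 and 0.00917). Among all genes tested in that fit, 1.95% passed as higher. The highest levels per length among the 47 were those of Cd93, Vtn, Clu, C1qb, C1qa and Cr1l, at 11.0, 6.66, 6.66, 5.41, 4.43 and 4.38 CPM per kilobase. Cr1l, the mouse convertase inhibitor Crry, was the steadiest of these at 43.6 to 48.0 CPM over the 6 libraries. Cfd, the adipocyte-made protease that cuts factor B, had 8, 112 and 405 counts in AAV-GFP and 35, 47 and 238 counts in AAV-RBM20, in each group highest in library 3 like C3 and Adipoq. The near copy of C1s1, C1s2, had 0 to 5 counts in each library, and 6.87% of the 100-base stretches of C1s1 occur in it.

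Interferons, interleukin 6 and NF-kB are known inducers of several complement genes, and lists of their target genes were read beside the 9. The 20 interferon-inducible genes summed to 103, 108 and 108 CPM in AAV-GFP and to 102, 110 and 596 CPM in AAV-RBM20, so library 3 of AAV-RBM20 alone was high. Iigp1, an immunity-related GTPase, measured 18.5, 19.1 and 19.6 CPM in AAV-GFP and 17.0, 19.7 and 277 CPM in AAV-RBM20, and Igtp and Oasl2 were also highest in that library. Of the 19 tested genes of the list, 19 had a value above 0 (median log2 fold change 0.59), 0 passed the threshold (edgeR, and 0 with DESeq2; 2 with an unadjusted p under 0.05), and without libraries 3 the median was 0.01. C1s1, C2, C4b and C3ar1 were highest in the same library, whereas C3 and Serping1 were highest in library 3 of AAV-GFP, where the interferon list was not high. The part of the interferon list in the values of C1s1, C2, C4b and C3ar1 was not tested.

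The 17 genes of the interleukin 6 and NF-kB list summed to 173, 180 and 161 CPM in AAV-GFP and to 183, 178 and 183 CPM in AAV-RBM20. Of 14 tested, 10 had a value above 0 and 0 passed the threshold (edgeR, and 0 with DESeq2; 1 with an unadjusted p under 0.05, median 0.10). Nfkb2 measured 8.86, 10.7 and 8.19 CPM against 12.9, 12.1 and 11.4 CPM without overlap, at a log2 fold change of 0.40 ± 0.15 (SE; edgeR adjusted p = 0.618). The acute-phase gene Hp and the feedback inhibitor Socs3 had log2 fold changes of -0.45 and 0.50, neither past the threshold.

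The mean of the 8 tested genes' standardised log2 CPM, a profile that C2, C3, Cd55 and Cd59a do not each follow, was -1.07, -0.63 and 0.55 in AAV-GFP against 0.13, 0.038 and 0.98 in AAV-RBM20. The genes most like that profile over the 6 libraries were Hist1h1a, Katnbl1, Tmem176a, Gna15, Gltp and Anxa2, with Pearson r of 0.998, 0.995, 0.994, 0.992, 0.990 and 0.990. Each was lowest in libraries 1 and 2 of AAV-GFP and highest in library 3 of AAV-RBM20. They were picked from all genes tested by that r over only 6 libraries. Their high r and shared order therefore follow from the choice and are a description only. Hist1h1a was also low, at 0.148 to 0.618 CPM.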

How the data were processed

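TA muscle was pulverised and total RNA was sequenced in 6 samples after ribosomal RNA depletion with a stranded kit. Reads were mapped by the authors with HISAT2 (mm10) and assigned to genes with HTSeq (versions, annotation release, strand setting and mode not given in the sources used here, so overlapping genes and near copies are uncertain). The main deposited table holds unnormalised counts from the authors. The signal in the second deposited table is the same counts divided by 1 DESeq2 size factor per library and was used only to check this scaling. The labels do not say that replicates were separate animals, so p-values measure the spread between these samples. Replicates of a group differed beyond sampling noise (chi-square per degree of freedom 15.1 to 545).

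Symbols and positions came from GENCODE M21 on GRCm38 (55141 of 55401 identifiers matched). Groups came from the labels. The fit used edgeR 4.0.16 in R 4.3.3: filterByExpr, TMM factors, robust quasi-likelihood F test, Benjamini-Hochberg adjustment over 17222 genes, threshold 0.05. The method was tested on simulated data. CPM used TMM-scaled library sizes, and levels per length used merged exons. The SE of a log2 fold change is its absolute value over the root of F. Log2 CPM for profiles used a prior count of 2. The number of shared bases was counted from the annotation.

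Same-numbered samples of the groups deviated together over genes (r = 0.418, 0.201 and 0.484; different numbers -0.422 to 0.216), each above 0.1. Title numbers were therefore treated as pairs in the fits with the replicate block. The main fit used no pairing. AAV-GFP 1 with AAV-RBM20 2 (r = 0.131) and AAV-GFP 2 with AAV-RBM20 1 (r = 0.216) were above 0.1 too. The rule therefore does not settle which of libraries 1 and 2 belong together. The numbers match only in the titles: the columns of the count table number the AAV-RBM20 samples 4 to 6. What a number marks is not given in the labels. In the paper's list of blotted muscles, some GFP and Rbm20 muscles carry the same number with the letters R and L. Whether the sequenced groups share animals in that way is not given.

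The 9 genes, the gene lists and the rules were chosen with earlier results of these data known. Named genes were the 9, further complement genes past the threshold in edgeR with or without the block (none), the 6 of these at the highest level per length, near copies, the 3 smallest p-values of each inducer list and the 6 most similar profiles. Genes named beyond that rule (C1qc, Masp1, Itgam, Itgax, Itgb2, Hc, Cfd, C7, Adipoq, Ighm, Cd3e and Cd4) were chosen after their values were seen. Alternatives were other scaling factors, filters, the block, DESeq2 1.42.0, leaving out each library or number, and leaving out mitochondrial, Ttn and Rbm20 counts.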

Additional observations from a re-analysis of the deposited data

How the results depend on the processing

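With all 6 libraries 0 genes passed the threshold, 8 with no filter on low counts, 75 with DESeq2, 520 with DESeq2 and the replicate block, and 0 to 690 on leaving out libraries, 690 only without libraries 3 of both groups (0 on leaving out any single library). With the replicate block of same-numbered pairs, 25 genes passed, and the block changed no call among the 9 complement genes. Complement genes past the threshold numbered 0 under every setting except without libraries 3 of both groups, where 3 passed (C1s1, C3ar1 and Serping1). Among the further complement genes, 5 passed with DESeq2 and the replicate block (C1qb, C1qc, Masp1, Itgax and Itgb2) and 3 without libraries 3. With DESeq2 and the block the adjusted p of C3ar1 was 0.0571. The median log2 fold change of the 8 tested genes was 0.14 to 0.69 on leaving out 1 library, the highest without library 3 of AAV-GFP, and 0.30 to 0.47 on leaving out a number. On leaving out 1 library the log2 fold change ranged from 0.23 to 0.67 for C1s1, 0.60 to 0.95 for C2, -1.12 to 0.81 for C3, -0.47 to 1.01 for C4b, 0.56 to 1.99 for C3ar1, -0.027 to 0.70 for Serping1, 0.19 to 0.57 for Cd55 and -0.033 to 0.23 for Cd59a. The fitted direction turned for C3 without library 3 of AAV-GFP (0.81) and without both libraries 3 (0.13), for C4b without library 3 of AAV-RBM20 (-0.47), for Cd59a without library 1 of AAV-RBM20 (-0.033) and without both libraries 1 (-0.16), and for Serping1 without library 1 of AAV-GFP (-0.027) and without library 3 of AAV-RBM20 (-0.0049). None of these passed the threshold, and the cause was not tested. A filter of 1 CPM in 3 libraries removed C2, and DESeq2 with the block gave it no adjusted p. At 15 to 39 counts for C2 and 0 to 8 for Cfb, the low counts and the overlap with Gm20547 limit what can be said of both.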

Other observations

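Further marker lists were read beside the complement genes. The 7 adipocyte markers summed to 220 to 278 CPM in AAV-GFP and 232 to 293 CPM in AAV-RBM20, mostly Pnpla2 and Fabp4, with Adipoq at 0 in library 1 of both groups. The 8 neutrophil markers summed to 1.45 to 4.64 CPM in AAV-GFP and 0.995 to 4.47 CPM in AAV-RBM20, and Ly6g had no count in any library. The 8 hepatocyte markers summed to 11.0 to 13.9 CPM in AAV-GFP and 8.91 to 10.8 CPM in AAV-RBM20. The 6 erythroid markers summed to 4.06 to 10.7 CPM in AAV-GFP and 2.84 to 27.6 CPM in AAV-RBM20, and the 6 Schwann cell markers to 22.1 to 52.1 and 32.3 to 43.4 CPM. Of the 10 lymphocyte markers, Ighm made up most of the sum and measured 88.8 to 144 CPM in AAV-GFP and 33.8 to 73.8 CPM in AAV-RBM20, without overlap, the sum being 90.5 to 145 and 39.5 to 74.8 CPM. The T cell markers did not go that way: Cd3e had 1, 3 and 6 counts in AAV-GFP against 13, 5 and 46 in AAV-RBM20, and Cd4 had 0, 8 and 17 against 23, 10 and 56 counts. Of the 10 muscle fibre markers, 7 had a value below 0, and they summed to 99527 to 108870 CPM in AAV-GFP and 65243 to 94823 CPM in AAV-RBM20. With all 6 libraries no gene of these lists, or of the macrophage, fibroblast and endothelial lists, passed the threshold with edgeR or with DESeq2 without a block, and 1 lymphocyte, 1 fibroblast and 3 muscle fibre markers had an unadjusted edgeR p under 0.05. With the replicate block in edgeR, 2 macrophage markers (Ctss and Ccr2) passed as higher and 1 lymphocyte marker (Ighm) as lower, named after their values were seen. With DESeq2 and that block, 5 macrophage, 4 muscle fibre, 1 fibroblast and 1 lymphocyte marker passed, beside 520 of all 17222 genes. Of the 10 muscle fibre markers, 4 lay wholly lower in AAV-RBM20, beside 9.04% of all genes tested.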
